A study of Mus musculus with 6 samples.

Results

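The genes examined here code for 10 transporters that carry bile acids, organic anions, phospholipid and sterols into or out of the hepatocyte, the main cell type of the liver. They were chosen by name, and every probe set that the array annotation assigned to exactly 1 of these symbols was taken, 232 probe sets of 208397 with 1 gene. The 10 genes stand among 16277 genes with such probe sets. They form 4 uptake transporters (Slc10a1, Slco1a1, Slco1a4 and Slco1b2, with 66 probe sets) and 6 export transporters (Abcb11, Abcb4, Abcc2, Abcc3, Abcg5 and Abcg8, with 166 probe sets). The data are 6 Affymetrix exon arrays of whole mouse liver, 3 from SRSF3HKO mice, in which the splicing factor gene Srsf3 is deleted in hepatocytes, and 3 from WT mice described as littermates of the same age. All livers came from untreated mice at 1 month of age. The labels leave out how many mice the WT arrays stand for, the promoter behind the deletion and the sex of the animals. Each p-value therefore reflects the spread among these arrays, which may in part be technical. Y-linked signal was present on some arrays of each genotype and absent from others, so this spread also includes differences between animals. The question was whether uptake and export transporters differ in the same way when hepatocytes lack SRSF3.

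Bile forms when hepatocytes take up bile acids and other organic anions from sinusoidal blood across the basolateral membrane and pump them across the canalicular membrane. Slc10a1 codes for NTCP, the sodium-dependent carrier of conjugated bile acids, and the Slco genes code for sodium-independent organic anion carriers (OATPs). On the canalicular side Abcb11 codes for BSEP, the bile salt export pump, Abcb4 for the phosphatidylcholine floppase MDR2, Abcc2 for MRP2, which exports conjugated bilirubin and glutathione conjugates, and Abcg5 and Abcg8 for the partner subunits of the sterol transporter. Abcc3 codes for MRP3, which exports conjugates across the basolateral membrane back to blood.

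RefSeq windows from 250 bases before to 50 after the gene start (build GRCm38.p6) were at hand for 9 of the 10 genes, and the stretches before the start are shown for the transporters that passed the test described below and for Slc10a1. Each is written 5′ to 3′ on the strand of the gene, and Abcg5 and Abcg8, which start back to back, share the stretch between their starts, written on the strand of Abcg8. Capitals mark, on either strand, the matches to the motif named for that stretch alone. That motif was picked for each stretch from those with a match there, so it does not stand for the main site of the gene. Several of the motifs are built from the nuclear receptor element AGGTCA. In DR1, a site type of HNF4A marked in Slco1a1, the element is repeated in the same direction after 1 base. In IR1, a site type of the bile acid receptor FXR marked in Slco1b2 and Abcb11, it is followed after 1 base by its reverse complement. The motif marked in Slc10a1 is TTCNNNGAA, a STAT site type, and that between Abcg5 and Abcg8 is the GATA factor site type with the letters GATAA. The HNF1 motif marked in Abcc2 is GTTAAT followed after 1 base by its reverse complement.
Slco1a1, chr6:141946963-141947112, minus strand: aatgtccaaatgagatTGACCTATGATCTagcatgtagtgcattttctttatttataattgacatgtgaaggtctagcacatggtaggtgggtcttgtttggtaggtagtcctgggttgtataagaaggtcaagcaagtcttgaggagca
Slco1b2, chr6:141629368-141629517, plus strand: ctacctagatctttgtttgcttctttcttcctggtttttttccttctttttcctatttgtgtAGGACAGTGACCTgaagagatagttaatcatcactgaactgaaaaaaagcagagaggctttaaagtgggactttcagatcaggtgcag
Slc10a1, chr12:80968706-80968855, minus strand: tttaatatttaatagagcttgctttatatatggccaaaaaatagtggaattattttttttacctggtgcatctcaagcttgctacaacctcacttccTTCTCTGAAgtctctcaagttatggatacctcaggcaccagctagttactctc
Abcb11, chr2:69342617-69342766, minus strand: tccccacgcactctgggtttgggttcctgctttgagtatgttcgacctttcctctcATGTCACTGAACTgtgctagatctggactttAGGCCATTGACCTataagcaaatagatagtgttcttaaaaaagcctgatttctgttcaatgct
Abcc2, chr19:43782158-43782307, plus strand: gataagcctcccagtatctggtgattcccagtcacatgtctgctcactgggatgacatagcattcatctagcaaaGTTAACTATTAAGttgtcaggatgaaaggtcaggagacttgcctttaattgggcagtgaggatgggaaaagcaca
Abcg5-Abcg8, chr17:84683012-84683120, plus strand: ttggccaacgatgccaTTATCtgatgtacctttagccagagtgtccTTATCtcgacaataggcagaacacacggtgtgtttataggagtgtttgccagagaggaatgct

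For DR1, IR1 and HNF1 up to 2 mismatches in the 12 fixed letters were allowed, and the shorter motifs had to match exactly. Of 32851 windows of 300 bases in the RefSeq table, 3.86% held a DR1 match, 1.14% an IR1 match, 1.36% an HNF1 match, 8.3% TTCNNNGAA and 25.4% GATAA. Another nuclear receptor motif, DR4 (the element repeated in the same direction after 4 bases), stood in 3.02% of all windows and in none of the 9 genes' windows. These matches describe letters and do not show binding. The 2 marked matches of IR1 in Abcb11 carry 2 mismatches and 1 mismatch, and that of Slco1b2 carries 1. The Abcc2 stretch also opens with a GATAA match, left in lower case. Outside the stretches shown, the Slco1b2 window held TTCNNNGAA, and the Slc10a1, Abcb4, Abcg5 and Abcg8 windows held GATAA.

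Across all genes, 1391 of 11711 tested genes (11.9%) passed an adjusted p of 0.05 in limma, 802 of them higher (6.85%) and 589 lower (5.03%) in SRSF3HKO livers. The number of arrays limits the precision. Srsf3 itself had gene levels of 10.30, 9.10 and 9.78 in SRSF3HKO livers and 9.79, 9.24 and 9.35 in WT livers (log2 change 0.26 ± 0.31, limma adjusted p = 0.6255). Of its 13 tested probe sets 6 were higher and 0 lower in SRSF3HKO livers (log2 changes of -1.03 to 1.68), so no call on the targeted gene ran towards a loss of its RNA, and without knowing the deleted part the gene level cannot check the genotype labels. Y-linked signal was present in SRSF3HKO replicate 3 and in WT replicates 1 and 2 and absent from the other 3 arrays. The mean level of 7 measured hepatocyte markers was 12.43 to 12.54 on the SRSF3HKO arrays and 12.86 to 12.92 on the WT arrays, with 1 marker lower (Serpina1c) and none higher. Serpina1c, read by 1 probe set, changed by -1.57, whereas the median log2 change of the 7 markers was -0.18. The 8 macrophage markers averaged 10.86, 8.15 and 8.45 on the SRSF3HKO arrays and 8.17 to 8.34 on the WT arrays, with 1 higher (Marco), so SRSF3HKO replicate 1 stood apart. The 7 endothelial markers averaged 8.42, 7.64 and 7.69 on the SRSF3HKO arrays and 8.19 to 8.63 on the WT arrays, with 1 lower (Kdr). The 8 stellate cell markers averaged 7.19 to 7.89 on the SRSF3HKO arrays and 7.42 to 7.74 on the WT arrays, with none passed. The 9 measured cholangiocyte markers averaged 6.10 to 6.75 on the SRSF3HKO arrays and 5.99 to 6.4995 on the WT arrays. Cftr lay below the detection floor, 1 marker was lower (Slc10a2) and none higher, with a median log2 change of 0.15. Krt19 also had a negative change (-0.31), which did not pass. Spp1, Epcam, Krt7, Sox9, Muc1 and Tff2 had positive changes of 0.11 to 1.56, and none of these passed. Of 5 markers of intestinal or kidney epithelium 4 lay below the floor. The part of these cell type differences in the results below was not tested, and in whole liver fewer cells of a type and less RNA per cell cannot be told apart.

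Of the 4 uptake transporters 2 fell in SRSF3HKO livers (Slco1a1 and Slco1b2) and none rose, against 5.03% lower and 6.85% higher among all tested genes. All 4 had a negative log2 change, with a median of -1.31, as did 4991 of the 11711 genes. Of the 6 export transporters 2 rose (Abcc2 and Abcg5) and 1 fell (Abcb11), with a median log2 change of 0.65. The median over all 11711 genes was 0.08. Leaving out SRSF3HKO replicate 1, the array with high macrophage markers, 3 transporter genes were lower and 1 higher. Of the 11581 genes tested without that array, 611 were lower and 574 higher. Changes are SRSF3HKO minus WT, in log2(intensity + 16), which understates changes of dim genes, and the level of a gene is the median over its probe sets. Errors after a change are limma's SE, with 3 arrays per group. The 3 arrays of one genotype lay entirely below or above those of the other for 7 of the 10 genes, 4 below and 3 above in SRSF3HKO livers, against 35.6% of all tested genes (14.0% below and 21.6% above).

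**Figure D1:**
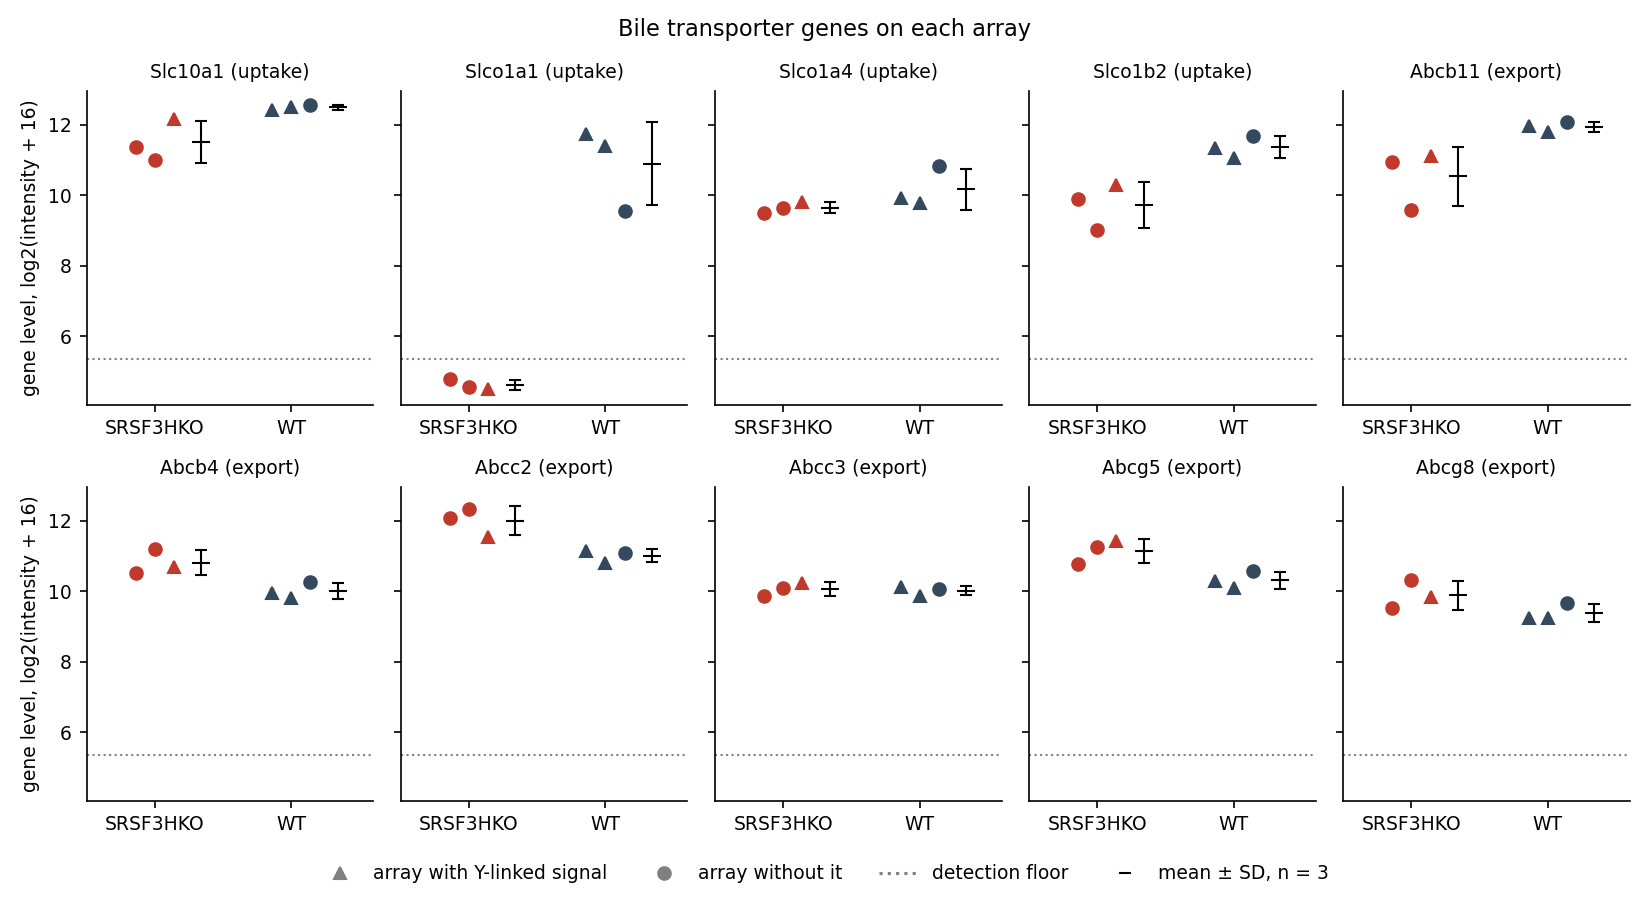
Gene level in log2(intensity + 16) of the 4 uptake and 6 export transporters on each of the 3 SRSF3HKO arrays (left, red) and 3 WT arrays (right, dark blue), with the mean ± SD of each group beside the points. Triangles are arrays with Y-linked signal, circles arrays without it, and the dotted line is the detection floor of 5.35, below which only the SRSF3HKO arrays of Slco1a1 lie.

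Averaged over the uptake genes, the log2 difference from the WT mean was -2.35, -2.67 and -2.04 on the SRSF3HKO arrays and 0.12, -0.05 and -0.07 on the WT arrays. Averaged over the export genes it was 0.17, 0.35 and 0.35 on the SRSF3HKO arrays and 0.00, -0.18 and 0.18 on the WT arrays. The export mean thus stood above the uptake mean by 2.52, 3.03 and 2.39 on the SRSF3HKO arrays and by -0.12, -0.13 and 0.25 on the WT arrays. The export mean includes Abcb11, which had a log2 change of -1.40, whereas 5 of the 6 export genes had positive changes. The uptake mean includes Slco1a1, whose SRSF3HKO levels were below the detection floor. Without Slco1a1 the gap was 1.26, 1.81 and 0.94 on the SRSF3HKO arrays and 0.12, 0.05 and -0.17 on the WT arrays. These averages are descriptions of the chosen genes and carry no test.

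**Figure D2:**
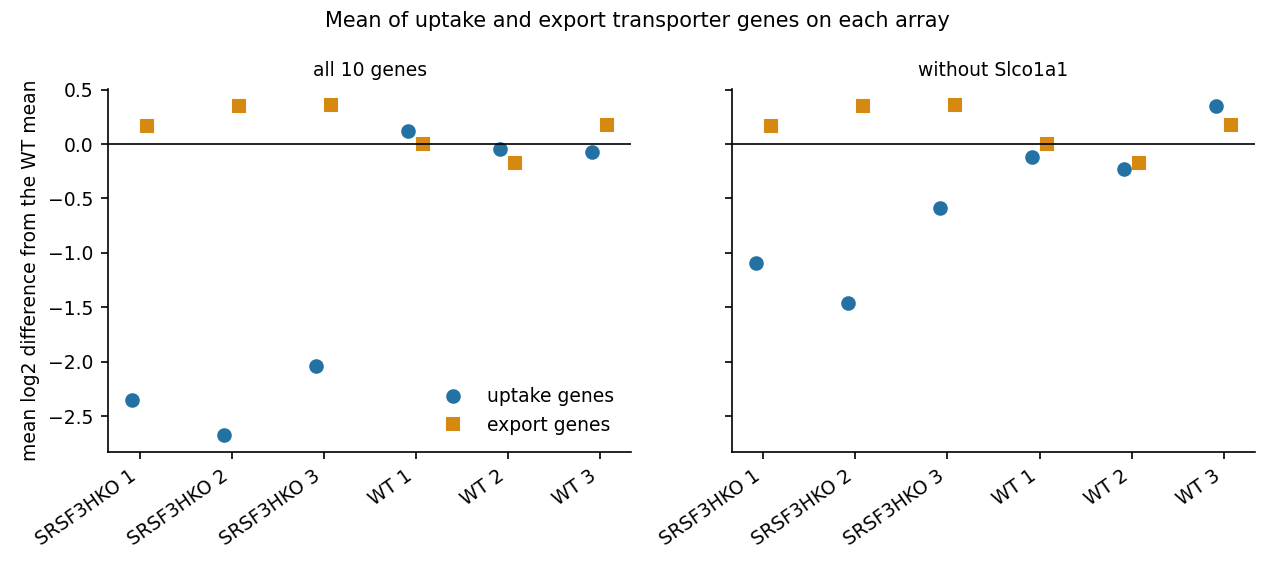
Mean log2 difference from the WT mean over the uptake genes (circles) and the export genes (squares) on each array, for all 10 genes (left) and without Slco1a1 (right). On the 3 SRSF3HKO arrays the uptake mean lies below the export mean in both panels, by 2.39 to 3.03 with all genes.

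Slco1a1, an organic anion carrier of the basolateral membrane, had the largest log2 change of the 10 genes. Its gene-level intensity was 11.5, 7.78 and 6.52 in SRSF3HKO livers and 3370, 2670 and 734 in WT livers. All 3 SRSF3HKO arrays lay below the detection floor, the level under which 90% of 1046 olfactory, vomeronasal and taste receptor genes fell. The gene was therefore at least 46.6-fold lower in SRSF3HKO livers (limma adjusted p = 0.000713), and 15 of its 15 probe sets fell. The call held in all 22 alternatives, with a highest adjusted p of 0.0119. Among WT livers the array without Y-linked signal had the lowest level. In mouse liver Slco1a1 is known to be more abundant in males. Against the floor, the gene was at least 74.1-fold lower among arrays with Y-linked signal (1 SRSF3HKO and 2 WT arrays) and at least 18.4-fold lower among those without it (2 SRSF3HKO and 1 WT array). These bounds follow the WT levels and do not compare the size of the fall.

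Slco1a4, a paralog that neighbours Slco1a1 on the chromosome and also carries organic anions and bile acids, did not pass. Its levels were 9.50, 9.64 and 9.80 in SRSF3HKO livers and 9.91, 9.77 and 10.84 in WT livers, and the groups overlapped. The log2 change was -0.52 ± 0.29 (95% interval -1.19 to 0.14, limma adjusted p = 0.274). Its highest level was on WT replicate 3, the array on which Slco1a1 was lowest among WT livers, and without this array the change was -0.19 (limma adjusted p = 0.661). The further paralogs of the family on the array, Slco1a5, Slco1a6 and Slco1c1, had mean levels below the detection floor, with no array above 5.09.

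Single probe sets of these neighbours did not all follow their gene. Of the 19 probe sets of Slco1a4, 17 had log2 changes of -0.79 to -0.02 and none of them passed. The other 2, probe sets 5474213 and 5323666, had log2 changes of -2.15 and -1.79 (limma adjusted p = 0.0025 and 0.00258). Of the 15 probe sets of Slco1a1, 13 had fitted log2 changes of -6.89 to -4.28 and held an intensity of at most 86.9 on every SRSF3HKO array. Probe sets 5464975 and 4334099 had smaller log2 changes of -2.18 and -2.47 and kept intensities of 822, 1177 and 1168 and of 304, 510 and 476 on the SRSF3HKO arrays.

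Probe set 5474213 of Slco1a4 and probe set 5464975 of Slco1a1 read nearly the same on every array. The first had intensities of 855, 1179 and 1112 in SRSF3HKO livers and 6066, 5147 and 3270 in WT livers. The second had 6260, 5387 and 3258 in WT livers, and the ratio of the first to the second stayed between 0.952 and 1.04 on the 6 arrays. For the remaining 2, 5323666 over 4334099, the ratio ran from 0.667 to 1.76, and against 5464975 the same Slco1a4 probe set kept a steadier ratio of 0.372 to 0.651. Whether these probe sets respond to both transcripts was not tested, since probe sequences were not used here. These 4 probe sets were picked after their values were seen. Without all 4 probe sets Slco1a1 still passed as lower (limma adjusted p = 0.000558), and Slco1a4 changed by -0.33 (limma adjusted p = 0.568).

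Slco1b2, the main liver-specific OATP of the mouse, fell. Its levels were 9.88, 9.0024 and 10.29 in SRSF3HKO livers and 11.34, 11.06 and 11.68 in WT livers, with no overlap. The log2 change was -1.64 ± 0.33 (limma adjusted p = 0.0202), and 16 of its 19 probe sets fell, with changes of -1.88 to -1.05 over all of them. It no longer passed when WT replicate 1, 2 or 3 was left out (limma adjusted p = 0.0866, 0.0713 and 0.0830) or when Y-linked signal was fitted too (log2 change -1.58, limma adjusted p = 0.0550).

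Slc10a1, the sodium-dependent bile acid carrier, lay lower on every SRSF3HKO array but narrowly missed the threshold. Its levels were 11.35, 11.003 and 12.16 in SRSF3HKO livers and 12.41, 12.50 and 12.55 in WT livers. The WT arrays lay close together (SD 0.07), whereas SRSF3HKO replicate 3 stood apart from the other SRSF3HKO arrays. The log2 change was -0.98 ± 0.28 (95% interval -1.63 to -0.34, limma adjusted p = 0.0578). Without SRSF3HKO replicate 3 it was -1.31 and passed (limma adjusted p = 0.00933), and it passed with median polish (adjusted p = 0.0451) and with a filter at the median (adjusted p = 0.0459). Of its 12 tested probe sets 9 fell when tested singly, and all 12 had negative changes, of -1.46 to -0.75. Its 1 remaining probe set was too dim to test.

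**Figure D3:**
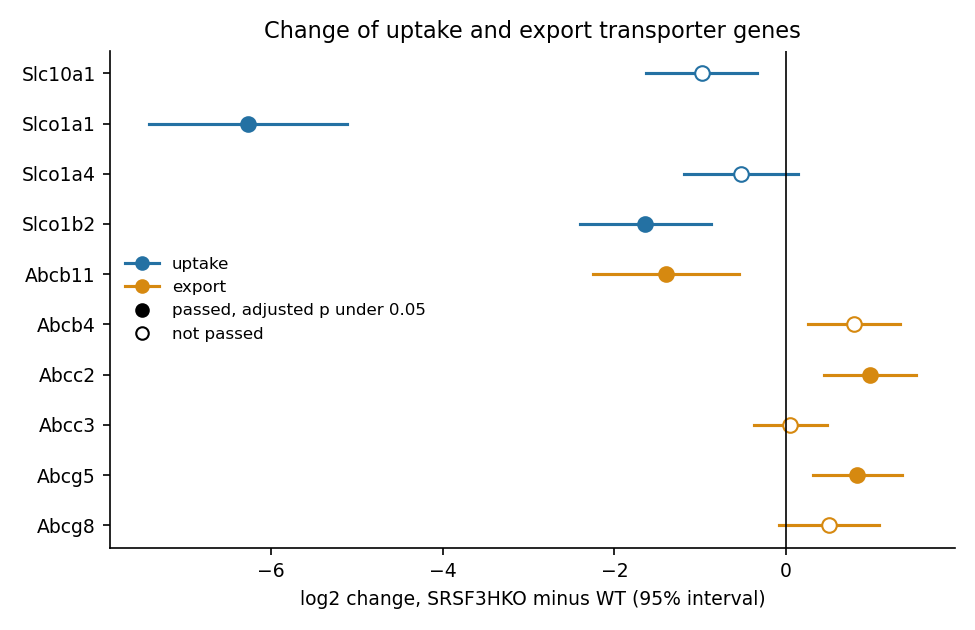
Log2 change (SRSF3HKO minus WT) of each transporter gene with its 95% interval from limma, uptake genes in blue and export genes in orange. Filled points passed an adjusted p of 0.05. That of Slco1a1 is fitted to SRSF3HKO values below the detection floor, and intervals of Slco1a4, Abcc3 and Abcg8 include 0.

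Abcb11, the bile salt export pump, was the export gene that fell. Its levels were 10.93, 9.58 and 11.11 in SRSF3HKO livers and 11.95, 11.80 and 12.07 in WT livers. SRSF3HKO replicate 2 was the lowest, and no SRSF3HKO array reached a WT array. The log2 change was -1.40 ± 0.37 (limma adjusted p = 0.0464). All 31 probe sets had negative changes, of -1.62 to -0.86, and 12 of them passed singly. The gene-level call was close to the threshold and ended in 10 alternatives, among them the mean over probe sets (adjusted p = 0.0773), the Y-linked covariate (adjusted p = 0.109) and the omission of WT replicate 1, 2 or 3 (limma adjusted p = 0.147, 0.1405 and 0.141). Without SRSF3HKO replicate 2 the change was -0.92 (limma adjusted p = 0.00921).

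Abcc2, the canalicular exporter of conjugates, rose. Its levels were 12.09, 12.34 and 11.54 in SRSF3HKO livers and 11.14, 10.80 and 11.09 in WT livers, without overlap. The log2 change was 0.98 ± 0.23 (limma adjusted p = 0.0345). Its 37 probe sets moved as a block, from 0.77 to 1.23, and 26 of them passed singly. It no longer passed on leaving out WT replicate 1, 2 or 3 or SRSF3HKO replicate 1 (limma adjusted p = 0.1065, 0.1397, 0.0982 and 0.0640) or with the Y-linked covariate (adjusted p = 0.0770).

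Abcb4, which moves phosphatidylcholine into bile, had levels of 10.52, 11.20 and 10.68 in SRSF3HKO livers and 9.96, 9.81 and 10.26 in WT livers. The groups did not overlap, but the log2 change of 0.79 ± 0.23 did not pass (95% interval 0.25 to 1.32, limma adjusted p = 0.0633). It passed with the mean over probe sets (adjusted p = 0.0460) and with array weights (adjusted p = 0.0491). Among its 29 probe sets 9 passed singly, all higher, and 28 had positive changes of up to 1.27.

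Abcg5 and Abcg8, which work only as a pair and start back to back on the stretch shown above, both had higher means in SRSF3HKO livers. Abcg5 had levels of 10.77, 11.24 and 11.41 in SRSF3HKO livers and 10.27, 10.09 and 10.57 in WT livers, without overlap. Its log2 change of 0.83 ± 0.23 sat on the threshold (limma adjusted p = 0.04998). The call ended in 16 of 22 alternatives, with adjusted p-values of up to 0.177, although the change stayed between 0.66 and 1.01. The libraries whose omission ended it were WT replicates 1, 2 and 3 (limma adjusted p = 0.169, 0.177 and 0.0913) and SRSF3HKO replicates 2 and 3 (limma adjusted p = 0.0548 and 0.116). Abcg8 had levels of 9.51, 10.32 and 9.82 in SRSF3HKO livers and 9.24, 9.23 and 9.67 in WT livers. These overlapped, with a log2 change of 0.50 ± 0.25 (95% interval -0.08 to 1.09, limma adjusted p = 0.232). Singly, 5 of 17 probe sets of Abcg5 rose and none of 17 of Abcg8.

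Abcc3, the basolateral exporter, showed no detectable difference. Its levels were 9.86, 10.10 and 10.23 in SRSF3HKO livers and 10.11, 9.87 and 10.05 in WT livers. The log2 change was 0.05 ± 0.19, and the 95% interval of -0.38 to 0.47 bounds what these arrays can show (limma adjusted p = 0.896). Its 35 probe sets spread around 0, with 16 negative and 19 positive changes and none passed.

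Over all 231 tested probe sets of the 10 genes, 54 were lower and 40 higher in SRSF3HKO livers, against 4.32% lower and 4.73% higher (9.05% together) among the 157764 probe sets tested in all. The lower ones comprised 42 of 65 uptake probe sets and the 12 of Abcb11, and the 40 higher ones were all of Abcb4, Abcc2 and Abcg5. Probe sets of a gene share its transcripts and are not replicates. The count of 94 was 18, 21 and 30 without WT replicates 1, 2 and 3 and 34 with the Y-linked covariate.

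**Figure D4:**
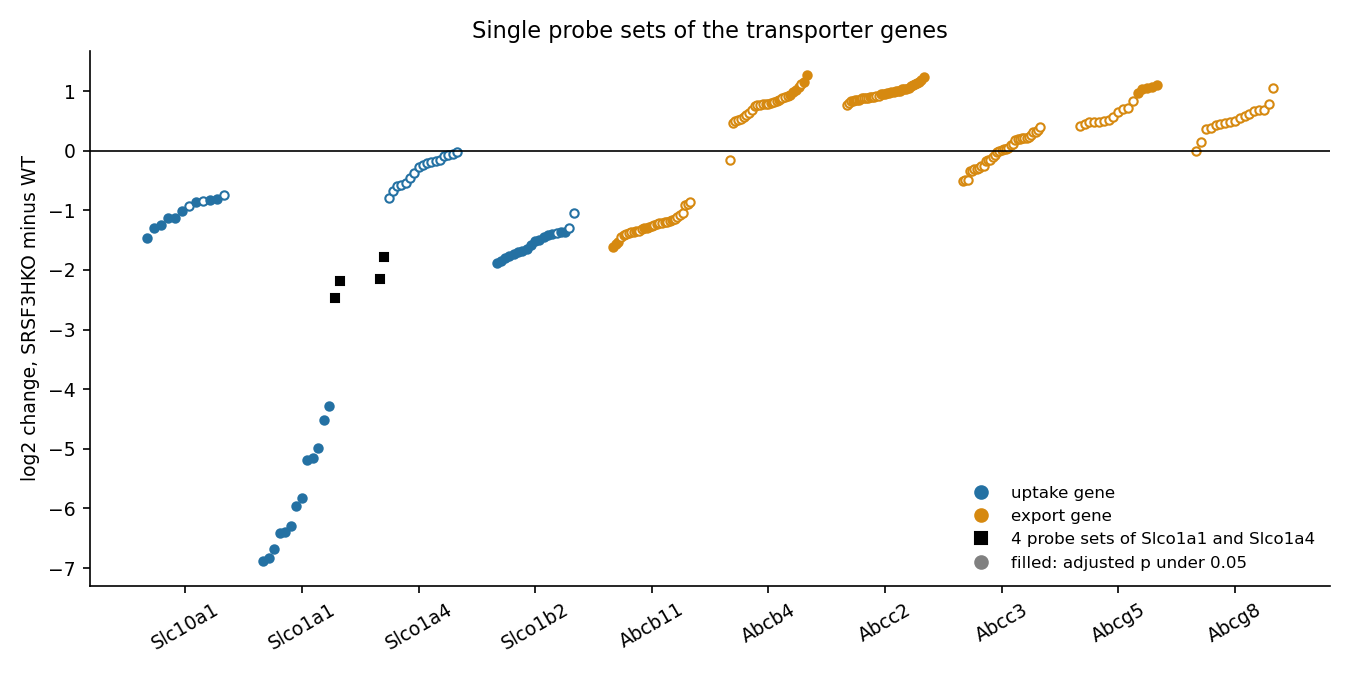
Log2 change (SRSF3HKO minus WT) of each tested probe set, sorted within its gene, with uptake genes in blue, export genes in orange and filled points at an adjusted p under 0.05. Black squares are the 4 probe sets of Slco1a1 and Slco1a4 described in the text, which lie between the other probe sets of both genes.

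Because SRSF3 acts in splicing, the change of each probe set was also set against the other probe sets of its gene. Of 231 member probe sets, 2 passed diffSplice in limma (0.662% of 142800 probe sets tested in all), and both were used more in SRSF3HKO livers (0.298% of all). These were the Slco1a1 probe sets 5464975 and 4334099 described above (diffSplice adjusted p = 0.00245 and 0.00846). The other Slco1a1 probe sets held an intensity of at most 86.9 on the SRSF3HKO arrays, most of them near background. Usage of the 2 probe sets is set against these values, so the calls cannot be read as a measure of exon use. Whether exon use changed was not tested apart from this. The per-array splicing index called 0 member probe sets. The count by diffSplice was also 0 without SRSF3HKO replicate 3, 1 without WT replicate 2 or SRSF3HKO replicate 2, and 7 without WT replicate 3.

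The 3 SRSF3HKO livers differed among themselves in several members. SRSF3HKO replicate 2 lay farthest from the WT mean for 6 of the 10 genes, being lowest for Slc10a1, Slco1b2 and Abcb11 and highest for Abcb4, Abcc2 and Abcg8. SRSF3HKO replicate 1 lay nearest to the WT mean for 5 genes and farthest for 1. SRSF3HKO replicate 3, the one with Y-linked signal, also lay nearest for 5 genes and was farthest for 3. For Slc10a1 its difference from the WT mean was -0.33, against -1.14 and -1.49 on the other SRSF3HKO arrays. When arrays with and without Y-linked signal were set apart, 9 of the 10 genes had the same sign in both, the exception being Abcc3 (0.23 and -0.08). For Slco1a4 the shared sign rested on a difference of only -0.03 with Y-linked signal, against -1.27 without it. The share of all tested genes with the same sign was not taken, so the count is a description only. The differences with and without Y-linked signal were -0.29 and -1.38 for Slc10a1, -0.92 and -2.24 for Slco1b2, -0.76 and -1.82 for Abcb11, 0.57 and 1.12 for Abcc2 and 1.23 and 0.44 for Abcg5. Each rests on 3 arrays and was not tested. With Y-linked signal in the fit 1 transporter gene, Slco1a1, kept its call (limma adjusted p = 0.00148), where 5 passed without it and 618 genes passed in all.

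The wider set of hepatobiliary transport genes held 136 genes, of which 112 were tested, and 26 fell and 8 rose (30.4%, against 11.9% of all genes). Shares by direction over all genes were 5.03% lower and 6.85% higher. This list was drawn up with earlier results of these data known. Among 16 other uptake carriers 4 fell and none rose (25.0%). Slco2b1, another organic anion carrier, had levels of 6.98, 6.24 and 6.88 in SRSF3HKO livers and 10.08, 9.68 and 9.82 in WT livers (log2 change -3.16 ± 0.25, limma adjusted p = 0.000637). Slc10a2, the bile acid carrier of ileum and bile duct cells, was dim and fell by 1.30, the prostaglandin carrier gene Slco2a1 by 1.12, and Slc10a5 by 1.04 (limma adjusted p = 0.0152, 0.0414 and 0.0444). Of these, the Slco2b1 call held in all alternatives, and the other 3 did not pass on leaving out WT replicate 1 or 2, nor Slco2a1 and Slc10a5 on leaving out several other arrays.

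A sublist of other ABC transporters, exporters and flippases held 27 tested genes, not all of which export from the cell. Of these 6 fell and 4 rose (37.0%, against 11.9% of all genes), a share that does not describe cellular export alone. The ABCA lipid transporter genes Abca8a, Abca2 and Abca3 fell by 2.13, 1.55 and 1.19, and Abca5 rose by 1.53 (limma adjusted p = 0.00174, 0.00324, 0.00997 and 0.00449), though Abca3 did not pass on leaving out WT replicate 1 or 3 (limma adjusted p = 0.0686 and 0.0534). A few further genes were picked after their values were seen because of their place beside the members. Slc51b, a subunit of the basolateral bile acid exporter, had levels of 8.74, 6.53 and 8.26 in SRSF3HKO livers and 5.52, 4.45 and 6.22 in WT livers (log2 change 2.45 ± 0.61, limma adjusted p = 0.0388). Its partner Slc51a lay below the detection floor on every array. The drug exporter gene Abcb1a rose by 1.74 ± 0.35, and Atp8b1, a phospholipid flippase of the canalicular membrane, fell by 1.17 ± 0.21 (limma adjusted p = 0.0190 and 0.0148). Leaving out WT replicate 1 or 2 ended these 3 calls, and that of Slc51b also ended without WT replicate 3 or SRSF3HKO replicate 1 or 3 (limma adjusted p = 0.0623, 0.0682 and 0.0926).

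Among 32 regulators of these transporters 7 fell and 1 rose (25.0%, against 11.9% of all genes). Ghr, the receptor gene for growth hormone, fell by 3.37 and Fgfr4, the hepatic receptor for the ileal hormone FGF15, by 1.73 (limma adjusted p = 0.00126 and 0.00327). The estrogen receptor gene Esr1 fell by 1.08, and the orphan receptor gene Esrra rose by 1.45 (limma adjusted p = 0.0217 and 0.0104). The Esr1 call ended without any one WT replicate (limma adjusted p = 0.0706 to 0.106) and the Esrra call without WT replicate 2 (limma adjusted p = 0.0569). Rxra, the shared partner of FXR, PXR, CAR and LXR, had levels of 8.91, 8.96 and 8.92 in SRSF3HKO livers and 9.71, 9.50 and 9.90 in WT livers (log2 change -0.77 ± 0.19, limma adjusted p = 0.0349). The fatty acid receptor gene Ppara, the retinoic acid receptor gene Rara and the transcription factor gene Cebpa fell by 0.93, 0.75 and 1.48 (limma adjusted p = 0.0404, 0.0404 and 0.0263). These 4 genes were named after their values were seen. None of them passed on leaving out WT replicate 1, 2 or 3 (limma adjusted p of 0.0790 to 0.153), nor did Rxra, Ppara and Rara on leaving out SRSF3HKO replicate 1 or 3 (limma adjusted p of 0.0559 to 0.0790). With the mean over probe sets as the gene level, none of the 4 passed either (limma adjusted p of 0.0626 to 0.0951). Several other receptor genes tied to bile transport did not pass. Nr1h4, which codes for FXR, had levels of 9.65, 9.82 and 9.98 in SRSF3HKO livers and 10.31, 9.97 and 10.21 in WT livers (log2 change -0.35 ± 0.19, limma adjusted p = 0.259). Its target Nr0b2 (SHP) varied within both groups, at 8.80, 7.19 and 9.69 in SRSF3HKO livers and 8.85, 7.75 and 8.89 in WT livers (log2 change 0.07 ± 0.59).

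The xenobiotic receptor genes Nr1i2 (PXR) and Nr1i3 (CAR) had log2 changes of -0.32 and -1.11, the oxysterol receptor gene Nr1h3 (LXRα) of -0.82, Nr5a2 (LRH-1) of -0.74, Hnf4a of -0.18 and Nfe2l2 (NRF2) of 0.07, with limma adjusted p of 0.689, 0.139, 0.113, 0.0771, 0.585 and 0.929. The 3 SRSF3HKO arrays lay below the WT arrays for Nr1h3 and Nr5a2 and overlapped with them for the other 4.

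**Figure D5:**
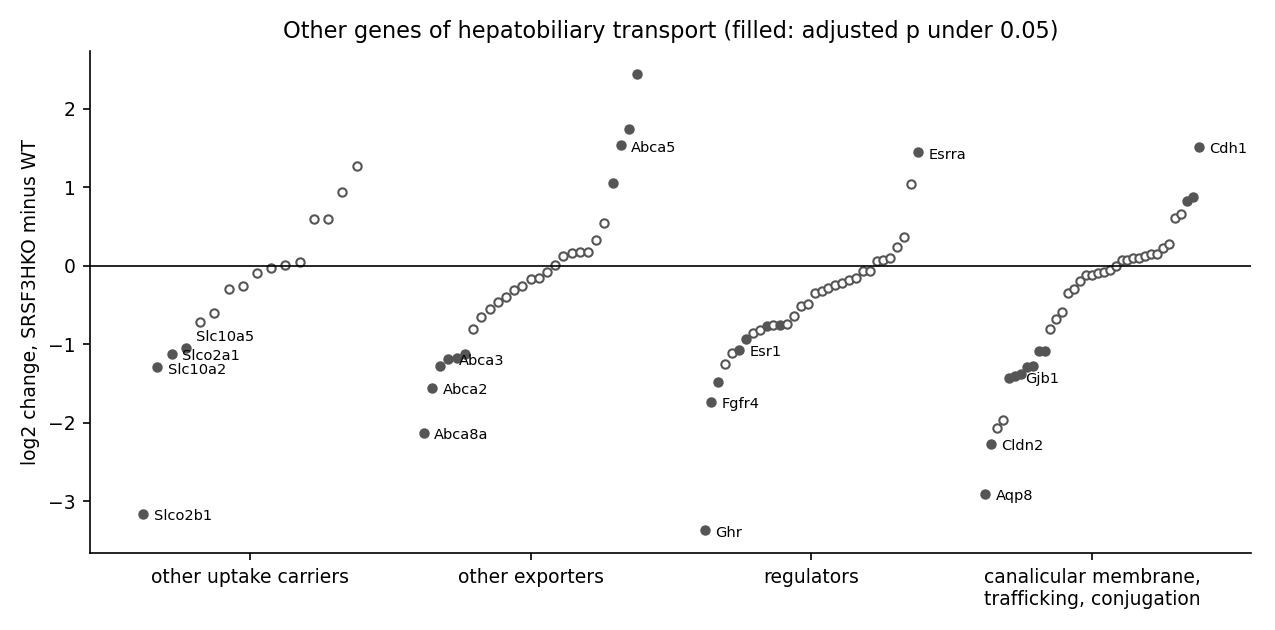
Log2 change (SRSF3HKO minus WT) of the 112 tested genes of the wider list, sorted within each of its 4 sublists, with filled points at an adjusted p under 0.05. Named are up to 4 genes per sublist with the lowest adjusted p, of which Ghr, Slco2b1 and Aqp8 lie lowest.

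Over the 6 arrays, the genes whose centred levels were most like those of Slco1a1 were the carboxylesterase genes Es31, Ces3b and Ces1f, with root mean square differences of 0.84, 0.84 and 0.90 on the log2 scale. For Abcc2 they were Rab31, Eif1a and Golga5, with root mean square differences of 0.07, 0.09 and 0.09. The ranking covers all tested genes that are not members, and the difference between genotypes contributes to it. Since all 3 SRSF3HKO levels of Slco1a1 lay below the detection floor, the values matched on those arrays are background readings of Slco1a1. Es31 and Ces3b themselves lay above the floor there, at 5.96, 5.91 and 7.50 and at 5.59, 6.10 and 7.44. Ces1f read 6.12, 4.95 and 6.13 there, below the floor on SRSF3HKO replicate 2.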

How the data were processed

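The deposited values are linear intensities of core exon probe sets that the authors summarised with PLIER in Affymetrix Expression Console, per the labels and the submitters' processing notes; versions and background step are not given in the sources used here. Genotype came from the labels, and replicates were numbered in sample order, which pairs nothing. Genes were assigned from the supplied array annotation: 208397 had 1 gene, 3965 several and 17219 none, and of 16299 symbols 2124 were updated to the current one. Intensities were transformed to log2(value + 16), and each gene was summarised as its median probe set value. Genes entered the tests if their mean exceeded the 90th percentile of 1046 receptor genes (5.35). Probe sets entered if their mean exceeded the 90th percentile of the single probe sets of receptor genes (5.63). The genotypes were compared by limma 3.58.1 (mean-variance trend, Benjamini-Hochberg over all tested features) in R 4.3.3. Usage was tested with diffSplice in genes with at least 3 tested probe sets. The steps were tested on simulated data.

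The members and lists were chosen with earlier results of these data known. Named genes were the 10 members, up to 4 called genes per sublist with the lowest adjusted p, textbook regulators of bile transport, 3 Slco paralogs and the 3 genes most like the member with the lowest adjusted p in each direction; Slc51a, Slc51b, Abcb1a, Atp8b1, Baat, Cebpa, Rxra, Rara and Ppara were named after their values were seen. Alternatives changed the pseudocount, normalization, gene summary, filter, eBayes settings, array weights, threshold, Y-linked covariate and arrays included. Omission of the 4 Slco1a1 and Slco1a4 probe sets described was added after seeing the data.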

Additional observations from a re-analysis of the deposited data

How the results depend on the processing

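All called transporter genes kept their direction in every alternative. Their count of 5 was 3 without a filter and with the median over probe sets above the floor, and 1 (Slco1a1) at an adjusted p under 0.01 and with the Y-linked covariate, and it ranged from 1 to 5 when single arrays were left out, being 1 without WT replicate 1, 2 or 3. The 94 changed transporter probe sets were 57 without a filter and 57 without a mean-variance trend, 22 at an adjusted p under 0.01, 34 with the Y-linked covariate and 18 to 111 with single arrays left out. The 2 probe sets with changed usage were 1 with a pseudocount of 64, 4 with quantile normalization, 0 by the splicing index, 0 without the 4 alike probe sets and 0 to 7 with single arrays left out. The wider list's 34 genes were 10 at an adjusted p under 0.01, 19 with the Y-linked covariate and 9 to 42 with single arrays left out. Over all genes, 1391 became 2157 with array weights, 296 at an adjusted p under 0.01, 618 with the Y-linked covariate and 244 to 2155 with single arrays left out. The causes were not tested beyond what each alternative changes. Among genes that did not pass, Abcc3 turned to -0.006 with median centring, -0.0246 with the mean over probe sets and -0.0017 with median polish. With single arrays left out, log2 changes crossed 0 for Abcc3 (-0.0351 to 0.1485), Nr0b2 (-0.4993 to 0.7492), Nfe2l2 (-0.178 to 0.5291), Nr1i2 (-0.6264 to 0.2643) and Srsf3 (-0.0219 to 0.5775). No paired analysis was possible because the labels give the genotypes no shared replicate numbers.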

Other observations

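Of 37 tested genes of the canalicular membrane, its junctions, vesicle traffic and bile acid conjugation, 9 fell and 3 rose in SRSF3HKO livers (32.4%, against 11.9% of all genes). The tight junction gene Cldn2, whose product forms a paracellular pore, had a log2 change of -2.27 ± 0.26, and Aqp8, a water channel of the hepatocyte, of -2.91 ± 0.45 (limma adjusted p = 0.00254 and 0.00849). Gjb1, the main gap junction gene of hepatocytes, had levels of 10.88, 10.05 and 10.97 in SRSF3HKO livers and 12.05, 12.12 and 11.95 in WT livers (limma adjusted p = 0.0140). The adhesion gene Cdh1 rose by 1.52 ± 0.19 (limma adjusted p = 0.00372), with levels of 10.31, 10.44 and 10.27 in SRSF3HKO livers and 8.92, 8.97 and 8.58 in WT livers. Baat, which conjugates bile acids with amino acids, changed by -1.38 ± 0.37 (limma adjusted p = 0.0491), a call that ended in 11 of 22 alternatives. The Cldn2 and Cdh1 calls held in all of them. Aqp8 did not pass on leaving out WT replicate 1 or 2 (limma adjusted p = 0.0520 and 0.0543), nor Gjb1 on leaving out WT replicate 1, 2 or 3 (limma adjusted p = 0.0750, 0.0790 and 0.0518).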
